A study of Mus musculus with 6 samples.

Results

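The cytosolic chaperonin CCT, also called TRiC or the TCP1 ring complex, is described here through the transcripts of its subunits in mouse testis. The members are the rows of the authors' deposited gene table whose gene name is Tcp1, Cct2, Cct3, Cct4, Cct5, Cct6a, Cct6b, Cct7 or Cct8, which gave 9 genes of the 55331 listed. All 9 were among the 22048 genes that Cuffdiff had tested, so none was lost to a filter on low values. The PTBP1_KO libraries came from mice of genotype Ptbp1fl/fl; Amh-Cre+/-, in which Cre recombinase is driven by the Amh promoter in Sertoli cells, the somatic cells that nurse the germ cells. The WT libraries came from Ptbp1fl/fl mice, so both groups carried the floxed Ptbp1 alleles, and no group carried Amh-Cre on unfloxed alleles. Each group had 3 libraries of polyadenylated RNA from whole testes at 35 days, of a strain given as mixed. The labels do not say whether each library was a separate animal. The table gives 1 FPKM value per group (fragments per kilobase of transcript, scaled to sequencing depth), so no spread between libraries, SD or error of a fold change could be computed, and whether the groups' libraries overlapped cannot be seen.

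CCT is a double ring in which each ring holds 1 copy of every kind of subunit, and it folds newly made proteins in a closed chamber at the cost of ATP. Actins and tubulins are its best-known substrates. Nascent chains reach it from prefoldin, phosducin-like proteins act on it as cofactors, and tubulins pass from it to dedicated tubulin cofactors. TCP1 itself was first described as an abundant protein of the mouse testis encoded in the t complex, and Cct6b is a testis paralog of the ubiquitous subunit gene Cct6a. The study's question, which concerned PTBP1, an RNA-binding splicing regulator, and the actin cytoskeleton of Sertoli cells, makes a chaperone of actin of interest in these libraries.

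Transcripts of every subunit were abundant, and every subunit had a lower FPKM in PTBP1_KO than in WT testes, by small amounts that did not pass the test. The deposited log2 fold changes ran from -0.23 for Cct8 to -0.08 for Cct2. In fold terms, the FPKM in PTBP1_KO was between 0.853 and 0.949 times that in WT. In Cuffdiff's deposited test none of the 9 had a q under 0.05, the threshold used here, against 1.16% of all tested genes (256 of 22048), and none had an unadjusted p under 0.05, against 8.98% of them. Adjusted only over genes at 1 FPKM or more in a group, again none passed, against 1.61% of those genes. With no unadjusted p under 0.05, no adjustment of it could give a call. A normal p was also computed from the test statistic, whose scale is not known. It was at least 0.301 for every subunit, so the count of 0 after its adjustment was fixed and adds no support. With that p 0.0862% of tested genes passed. The common direction has to be read against the other abundant genes. Of the 1549 tested genes that reached 100 FPKM in a group, 67.5% also had a lower FPKM in PTBP1_KO, whereas among the 15793 that reached 1 FPKM this share was 51.1%. The median log2 fold change was -0.14 for the 9 subunits, -0.07 for genes reaching 100 FPKM and -0.005 for genes reaching 1 FPKM. Of the genes reaching 100 FPKM, 29.4% lay below the subunits' median. The 24 called genes at that level of expression (1.55% of that group) had a smallest log2 fold change of 0.33 in size. A call depends on the size of the change, so larger changes among called genes follow from their selection.

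**Figure D1:**
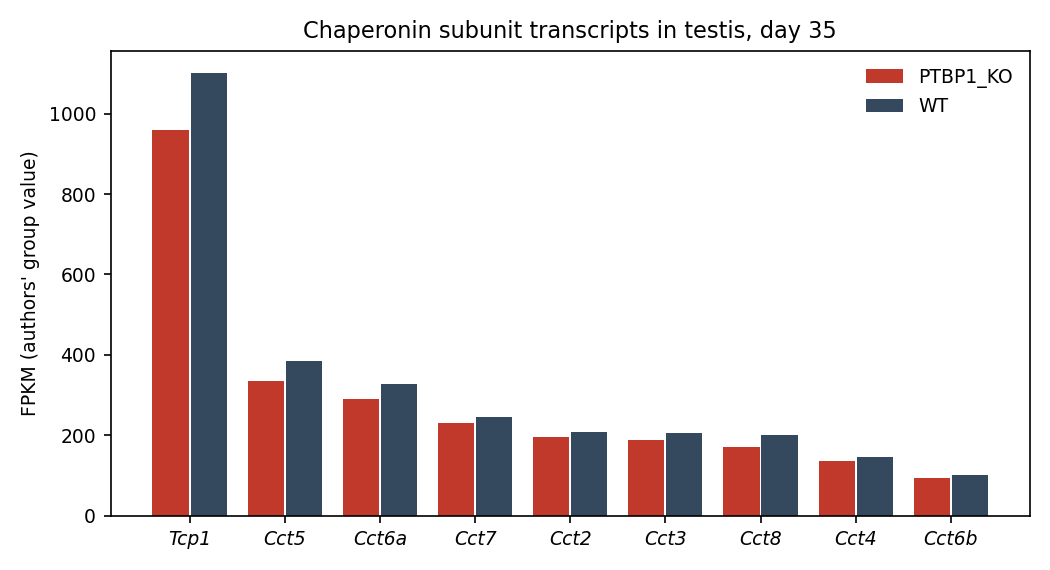
FPKM of the 9 chaperonin subunit genes (vertical axis, linear from 0) in PTBP1_KO testes (red) and WT testes (dark blue), ordered by the PTBP1_KO value. Each bar is the authors' single value for a group of 3 libraries, so there are no error bars; Tcp1 stands at 959.6 and 1101 FPKM, and the PTBP1_KO bar is the lower one for all 9 genes.

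The subunits that bind ATP most readily in yeast, encoded by Tcp1, Cct2, Cct4 and Cct5, included both the largest and some of the smallest values of the complex. Tcp1 (ENSMUSG00000068039.13, mm10 chromosome 17, 12915701 to 12925067, plus strand) stood at 959.6 FPKM in PTBP1_KO and 1101 FPKM in WT, 0.871 times the WT value, with a log2 fold change of -0.20 (the authors' deposited table, q = 0.674). It was the most abundant subunit transcript by a wide margin, at 2.86 times the FPKM of the next, Cct5, in both groups. Cct5 (ENSMUSG00000022234.15, chromosome 15, 31590800 to 31601804, minus strand) had 335.4 FPKM in PTBP1_KO and 384.9 FPKM in WT. The authors' deposited table gave it an unadjusted p of 0.0712 and a q of 0.637. It was the subunit nearest to the threshold, and its log2 fold change, -0.20, matched that of Tcp1. Cct2 (ENSMUSG00000034024.8, chromosome 10, 117051001 to 117063814, minus strand) and Cct4 (ENSMUSG00000007739.10, chromosome 11, 22990519 to 23003780, plus strand) differed least between the groups. Cct2 had 196.9 FPKM in PTBP1_KO and 207.6 FPKM in WT, a log2 fold change of -0.08, and Cct4 had 137.1 FPKM in PTBP1_KO and 145.4 FPKM in WT, also -0.08. The authors' deposited table gave both a q of 0.999.

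The subunits with weaker ATP binding in yeast are encoded by Cct3, Cct6a, Cct7 and Cct8, with log2 fold changes between -0.23 and -0.09, against -0.20 to -0.08 for the 4 genes above; the sets were not tested against each other. Cct8 (ENSMUSG00000025613.13, chromosome 16, 87483326 to 87495873, minus strand) had 171.7 FPKM in PTBP1_KO and 201.2 FPKM in WT, the lowest log2 fold change of the complex at -0.23 (the authors' deposited table, q = 0.890). Its p, at 0.219 unadjusted, was further from the threshold than those of Tcp1 and Cct5, whose log2 fold changes were nearer 0. Cct3 (ENSMUSG00000001416.13, chromosome 3, 88297116 to 88321767, plus strand) had 187.2 FPKM in PTBP1_KO and 206.7 FPKM in WT, a log2 fold change of -0.14 (the authors' deposited table, q = 0.792). This gene lay at the median of the 9 log2 fold changes. Cct7 (ENSMUSG00000030007.8, chromosome 6, 85451514 to 85468475, plus strand) had 230.8 FPKM in PTBP1_KO and 245.8 FPKM in WT, a log2 fold change of -0.09 (the authors' deposited table, q = 0.998). It was close to Cct2 and Cct4, the members that differed least.

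The zeta position of the ring can be filled by either of 2 paralogs, and the testis expressed both. Cct6a (ENSMUSG00000029447.11, chromosome 5, 129786998 to 129846371, plus strand) had 289.2 FPKM in PTBP1_KO and 327.5 FPKM in WT, a log2 fold change of -0.18 (the authors' deposited table, q = 0.952). Cct6b (ENSMUSG00000020698.11, chromosome 11, 82719250 to 82764321, minus strand) had 94.3 FPKM in PTBP1_KO and 102.3 FPKM in WT, a log2 fold change of -0.12 (the authors' deposited table, q = 0.921). The testis paralog was thus the least abundant of the 9, and it made up 24.6% of the summed Cct6a and Cct6b FPKM in PTBP1_KO and 23.8% in WT. Added together, the paralogs reached 383.5 FPKM in PTBP1_KO and 429.8 FPKM in WT, above the second most abundant subunit, Cct5, in both groups. Their messages are different enough to be counted apart. The longest Cct6b transcript aligned to Cct6a over 77.5% of its length at 74.3% identity, below the 95% over 80% of the length used here to mark a near-identical copy.

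Although the subunits enter each ring in equal copies, their transcripts did not stand at equal FPKM. In PTBP1_KO the order was Tcp1, Cct5, Cct6a, Cct7, Cct2, Cct3, Cct8, Cct4 and Cct6b, and in WT it was the same. Tcp1 had 10.2 times the FPKM of Cct6b in PTBP1_KO and 10.8 times in WT, and 4.87 times the median subunit in PTBP1_KO and 5.31 times in WT. Without Tcp1 and Cct6b the remaining subunits lay within 2.45-fold of each other in PTBP1_KO and 2.65-fold in WT, from Cct4 to Cct5. The closest neighbours were Cct2 and Cct3, whose FPKM ratio was 1.05 in PTBP1_KO and 1.004 in WT, followed by Cct3 and Cct8 at 1.09 in PTBP1_KO and 1.03 in WT. With 1 value per group, neither pair can be said to differ. Even Cct6b exceeded 93.0% of tested genes in PTBP1_KO and 93.3% in WT. FPKM is scaled by length over the isoforms that Cuffdiff assigned, and the annotation lists between 2 (Cct6b) and 12 (Tcp1) transcripts per subunit gene, so levels of different genes also carry that assignment. GENCODE classes Cct6a as a processed transcript with no coding isoform, whereas RefSeq lists it as protein-coding.

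Counting error was small beside each subunit's difference between PTBP1_KO and WT. Low FPKM values in the table moved in steps, from which 1 FPKM over an effective length of 1 kb was found to rest on about 204 fragments summed over the PTBP1_KO libraries and 226 over the WT libraries, taking a group value as the average over its 3 libraries. At that length the least abundant subunit, Cct6b, corresponded to about 19200 fragments in PTBP1_KO and 23100 in WT, a counting error of 0.722% in PTBP1_KO and 0.658% in WT. Tcp1 corresponded to about 196000 fragments in PTBP1_KO and 249000 in WT. The longest annotated transcript used for each subunit was at least 1853 bp, which is longer than the 1 kb assumed. This error covers counting only, and the spread between libraries, which decides whether a difference of this size is repeatable, is not in the table.

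**Figure D2:**
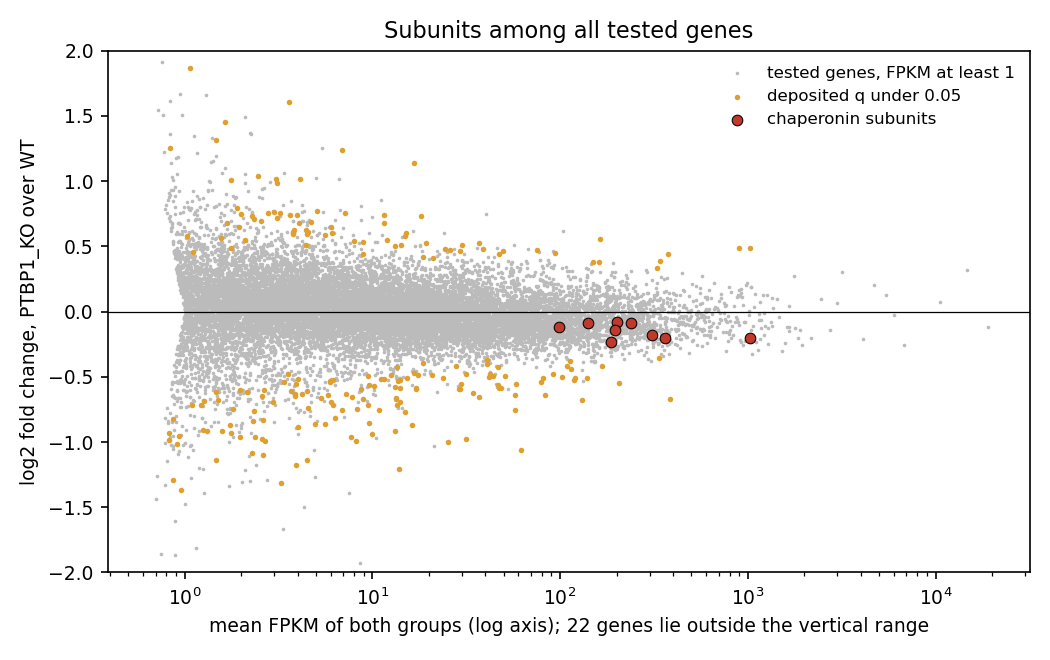
Deposited log2 fold change of PTBP1_KO over WT (vertical axis) against the mean FPKM of both groups (log axis) for tested genes reaching 1 FPKM in a group (grey), genes with a deposited q under 0.05 (orange) and the 9 chaperonin subunits (red). The subunits sit at the abundant end between -0.23 and -0.08, inside the grey cloud; 22 genes fall outside the plotted range of 2 in either direction.

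The genes around the subunits showed a shared position. Taking a gene's outermost annotated start, a gene of the opposite strand began within 1000 bp of 7 of the 9 subunit genes, or 77.8%, against 23.0% of all tested genes found in the annotation and 28.2% of those that reached 100 FPKM. The exceptions were Cct2 and Cct4. The pairs were Tcp1 with Mrpl18 (a mitochondrial ribosomal protein), Cct3 with Tsacc (a co-chaperone of a sperm kinase), Cct5 with Fam173b, Cct6a with Psph (phosphoserine phosphatase of serine synthesis), Cct6b with the zinc-finger gene Zfp830, Cct7 with Pradc1 and Cct8 with the non-coding B130034C11Rik. These outermost GENCODE starts lay between 24 bp (Cct6b and Zfp830) and 644 bp (Tcp1 and Mrpl18) apart. Distances depend on the annotation: the RefSeq start of Tcp1 lies much nearer to that of Mrpl18. The positions are a description of the annotation and do not show that a pair shares its regulation.

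The stretches between the starts of 3 such pairs, and the region upstream of Cct2 as a subunit with no such neighbour, are shown so that the short space from which both directions are read can be seen. They are free of annotated exons, come from RefSeq promoter windows on GRCm38.p6 (the same assembly as mm10), and are written 5′ to 3′ on the strand of the subunit. Capitals mark the CCAAT box and the GC box, read on either strand.
Cct3 and Tsacc, chr3:88297000-88297115, plus strand: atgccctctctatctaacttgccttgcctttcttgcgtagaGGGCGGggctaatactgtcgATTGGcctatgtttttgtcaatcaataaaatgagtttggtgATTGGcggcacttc
Cct6b and Zfp830, chr11:82764322-82764344, minus strand: agcttccgaggcgtgatagcgtc
Cct8 and B130034C11Rik, chr16:87495874-87495998, minus strand: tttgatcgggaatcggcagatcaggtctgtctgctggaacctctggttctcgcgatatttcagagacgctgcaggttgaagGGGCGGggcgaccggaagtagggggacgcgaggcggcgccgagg
Cct2, chr10:117063853-117064102, minus strand: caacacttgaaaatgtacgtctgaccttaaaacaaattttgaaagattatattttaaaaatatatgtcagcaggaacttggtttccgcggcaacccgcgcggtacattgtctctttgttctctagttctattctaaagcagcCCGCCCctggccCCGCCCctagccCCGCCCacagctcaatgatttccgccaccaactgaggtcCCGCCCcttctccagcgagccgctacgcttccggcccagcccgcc

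The stretches differed in the letters they held. The 116 bp between Cct3 and Tsacc carried 1 GGGCGG and 2 copies of CCAAT on the other strand, the 125 bp between Cct8 and its neighbour carried 1 GGGCGG, and the 23 bp between Cct6b and Zfp830 held none of the motifs searched. Promoter windows of 300 bases, from 250 before to 50 after a RefSeq start, matched 8 of the 9 subunits by symbol, all but Cct4. GGGCGG, the core of the GC box, occurred in windows of 7 of these 8 genes, against 38.2% of all 27025 genes with a window, Cct6b being the exception. CCAAT occurred in 5 of 8 (Cct3, Cct6a, Cct6b, Cct7 and Tcp1), against 41.1% of all genes. TATAAA occurred in 0 of 8, against 15.7% of all genes. Of the heat shock motifs searched, GAANNTTC occurred in Cct2 alone and TTCNNGAA in Cct5 and Cct6a, against 9.04% and 9.60% of all genes. TGACGT, the core of the cAMP response element, occurred in Cct6a alone (8.37% of all genes), GCATGCG in Cct5 alone (4.01%) and TTCCCAG in Cct6b and Cct8 (12.7%). These shares cover all genes with a window, whatever their expression, and no share was taken over abundant genes alone. A gene with several windows, such as Cct2, counted if any of them held the motif. A match says only that these letters are in the window.

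Of the 6 neighbours that were tested, 5 had the lower FPKM in PTBP1_KO and Tsacc the higher one. Of all tested genes reaching 1 FPKM, 51.1% had the lower value. A shared direction of so few pairs was not tested. Mrpl18, Psph and Pradc1 also share exon bases with their more abundant subunits (141, 452 and 214 bp). Whether the counting used strand is not given, so their values may not be separate from the subunits' values. Tsacc was as abundant as the larger subunits and had the higher value in PTBP1_KO, at 385.4 FPKM against 344.6 FPKM in WT, a log2 fold change of 0.16 (the authors' deposited table, q = 0.759), while its partner Cct3 stood at -0.14. Zfp830, beside Cct6b, had 35.1 FPKM in PTBP1_KO and 42.2 FPKM in WT, a log2 fold change of -0.26 with an unadjusted p of 0.0168 and q = 0.343 in the authors' deposited table. Mrpl18 had 31.3 FPKM in PTBP1_KO and 39.8 FPKM in WT, a log2 fold change of -0.35, and q = 0.999 in the authors' deposited table. Psph, Pradc1 and Fam173b were low, at 6.04, 3.87 and 2.02 FPKM in PTBP1_KO and 6.18, 4.25 and 2.14 FPKM in WT, and B130034C11Rik was not tested. Thus none of the 6 tested neighbours passed the threshold, against 1.16% of all tested genes.

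**Figure D3:**
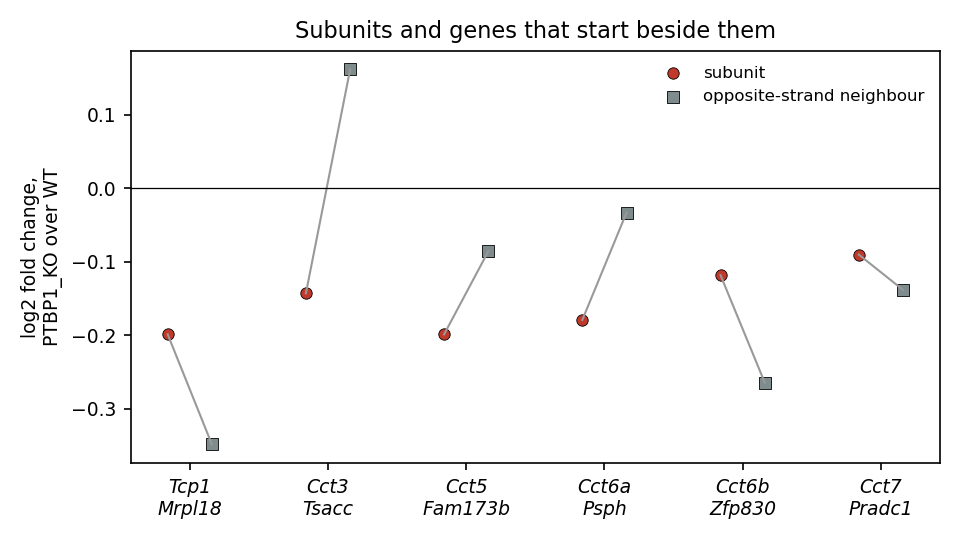
Deposited log2 fold change of PTBP1_KO over WT (vertical axis) for 6 chaperonin subunits (red circles) and the tested gene of the opposite strand that starts within 1000 bp of each (grey squares), with a line joining each pair. All 6 subunits lie below 0, and Tsacc, at 0.16, is the one neighbour above 0. Mrpl18, Psph and Pradc1 overlap exons of their subunits, so reads may not have been told apart.

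Exons of 4 subunit genes overlapped exons of a gene on the other strand: Tcp1 with Mrpl18 (141 bp) and Acat3 (571 bp), Cct6a with Psph (452 bp), Cct7 with Pradc1 (214 bp) and Cct8 with Usp16 (192 bp). The libraries were made with a stranded kit, but whether the counting used strand is not given in the sources used here. Reads from these stretches may therefore not have been told apart. Usp16, a deubiquitinase gene whose end overlaps that of Cct8, was abundant as well, at 130.7 FPKM in PTBP1_KO and 170.8 FPKM in WT, a log2 fold change of -0.39 (the authors' deposited table, q = 0.798). Both genes of that pair had the lower value in PTBP1_KO, and how far one contributed to the other was not tested. The other overlapping genes were at 39.8 FPKM or less. No subunit had a near-identical copy elsewhere. The closest were processed pseudogenes, such as Cct3-ps1 on chromosome 4, at 91.1% identity over 82.9% of the Cct3 transcript, and each pseudogene that covered at least 30% of a subunit transcript was listed at 0.0252 FPKM or less in both groups.

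Most genes of the cofactors that bring substrates to CCT or act on it had the lower FPKM in PTBP1_KO, again with none past the threshold. The share with the lower FPKM was 67.5% of all tested genes reaching 100 FPKM and 51.1% of those reaching 1 FPKM. Of all tested genes, 1.16% passed the threshold and 8.98% had an unadjusted p under 0.05. Of the 6 prefoldin genes, 5 had the lower FPKM in PTBP1_KO, with a median log2 fold change of -0.16, and 0 had an unadjusted p under 0.05. Pfdn5, the most abundant of them, had 937.9 FPKM in PTBP1_KO and 1178 FPKM in WT, a log2 fold change of -0.33 (the authors' deposited table, q = 0.609). It stood near the level of Tcp1. The other prefoldin genes were much lower, down to the X-linked Vbp1 at 3.96 FPKM in PTBP1_KO and 3.91 FPKM in WT. All 4 phosducin-like genes had the lower FPKM in PTBP1_KO, with a median of -0.16. Among them Pdcl2, a germ cell member of the family, had 433.0 FPKM in PTBP1_KO and 538.2 FPKM in WT, a log2 fold change of -0.31 with an unadjusted p of 0.00115 and q = 0.0759 in the authors' deposited table. Of the CCT genes and the pathway genes listed here it came closest to the threshold, and with the p computed from its test statistic under a normal distribution (0.0651 unadjusted) it was further away.

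Among substrates of CCT, more genes had the higher FPKM in PTBP1_KO than the lower, with none past the threshold. The lower value was held by 51.1% of all tested genes reaching 1 FPKM and 67.5% of those reaching 100 FPKM. Substrates and subunits were not tested against each other. All 4 tested actin genes had the higher FPKM in PTBP1_KO, with a median log2 fold change of 0.20 and 0 of 4 at an unadjusted p under 0.05. Acta2 among them is also counted below as a myoid marker, so the actin and myoid counts are not separate. Actb, cytoplasmic beta-actin, had 332.4 FPKM in PTBP1_KO and 281.7 FPKM in WT, a log2 fold change of 0.24 (the authors' deposited table, q = 0.622). Acta1 and Actc1, the skeletal and cardiac actins, were not tested. Of 13 tested tubulin genes, 8 had the higher FPKM in PTBP1_KO and 5 the lower; their median log2 fold change was 0.15. The summed FPKM of the listed tubulin genes was nearly equal, at 2968 in PTBP1_KO and 2987 in WT, since the 3 most abundant ones had the lower value in PTBP1_KO. Tuba4a (100.6 FPKM in PTBP1_KO and 79.2 FPKM in WT, unadjusted p = 0.0183), Tubb5 (29.0 FPKM in PTBP1_KO and 23.8 FPKM in WT, unadjusted p = 0.00870) and Tuba1c (41.8 FPKM in PTBP1_KO and 35.8 FPKM in WT, unadjusted p = 0.0354) had a small p with q of 0.357, 0.243 and 0.474 in the authors' deposited table. These were 3 of the 13 tested tubulin genes. Of all tested genes, 8.98% had an unadjusted p under 0.05 and 1.16% passed the threshold. The testis isotype Tuba3a, the most abundant tubulin, had 934.7 FPKM in PTBP1_KO and 985.5 FPKM in WT. Tuba3b had 744.8 FPKM in PTBP1_KO and 783.4 FPKM in WT, and Tubb4b had 585.5 FPKM in PTBP1_KO and 602.1 FPKM in WT. The authors' deposited table gave these 3 genes a q of 0.999. Tuba3a and Tuba3b are nearly identical in their coding sequence, so reads may be split between them. Among other substrates, Cdc20 and Fzr1, activators of the anaphase-promoting complex, and the G protein subunit Gnb1 had log2 fold changes between -0.04 and 0.05; the most abundant, Gnb1, had 98.7 FPKM in PTBP1_KO and 99.1 FPKM in WT.

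**Figure D4:**
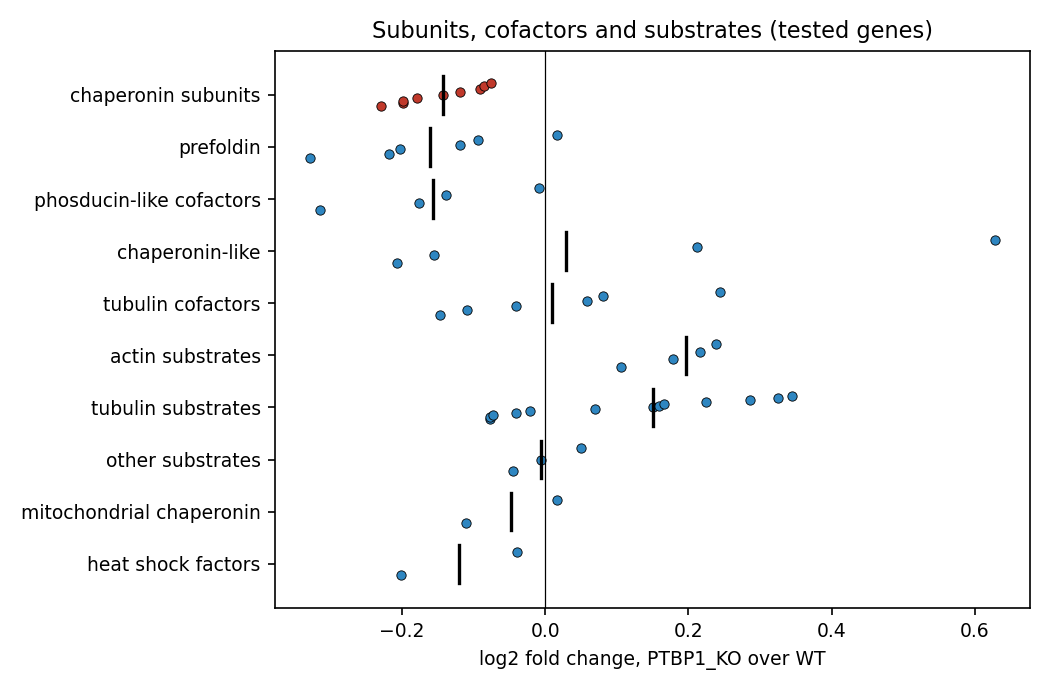
Deposited log2 fold change of PTBP1_KO over WT (horizontal axis) for the tested genes of each list, with 1 point per gene and a vertical bar at the list's median; chaperonin subunits are red, other lists blue. The subunits' median is -0.14, the prefoldin and phosducin-like medians are both -0.16, and the actin and tubulin medians are 0.20 and 0.15; no gene shown had a deposited q under 0.05.

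Chaperonin-like genes lay on both sides of 0, 2 with the higher and 2 with the lower FPKM in PTBP1_KO. Cct8l1, a gene named for its likeness to Cct8, had the higher value in PTBP1_KO, at 49.3 FPKM against 42.6 FPKM in WT, a log2 fold change of 0.21 with an unadjusted p of 0.0506 and q = 0.560 in the authors' deposited table. It has to be set apart from Cct8 itself, which stood at -0.23. Of the chaperonin-like genes Mkks, Bbs10 and Bbs12, which work with CCT in building the BBSome of cilia, Mkks had the higher FPKM in PTBP1_KO and the other two the lower, all below 10 FPKM. The 6 tubulin cofactor genes split evenly, 3 with the lower and 3 with the higher FPKM in PTBP1_KO, at a median log2 fold change of 0.01. Tbca, the most abundant, had 121.3 FPKM in PTBP1_KO and 130.8 FPKM in WT. The mitochondrial chaperonin genes Hspd1 and Hspe1 encode a separate folding machine. Hspe1 had 55.8 FPKM in PTBP1_KO and 60.2 FPKM in WT, and Hspd1 had 44.0 FPKM in PTBP1_KO and 43.6 FPKM in WT. Of the heat shock factors, which can activate chaperone genes, Hsf1 had 15.3 FPKM in PTBP1_KO and 15.7 FPKM in WT, and Hsf2 had 14.9 FPKM in PTBP1_KO and 17.1 FPKM in WT. None of these 4 lists held a gene with an unadjusted p under 0.05 in the authors' deposited table, against 8.98% of all tested genes.

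In whole testis fewer cells of a type and less RNA per cell cannot be told apart, and cell type markers differed between the groups too. Of 7 germ cell markers, 6 had the lower FPKM in PTBP1_KO, with a median log2 fold change of -0.12. Of all tested genes, 67.5% of those reaching 100 FPKM and 51.1% of those reaching 1 FPKM also had the lower value. The median log2 fold change of all genes reaching 100 FPKM was -0.07. The summed FPKM of the germ cell markers was 35188 in PTBP1_KO and 33582 in WT, a sum set by Tnp1 and Prm1. Of these, Prm1, a protamine of elongating spermatids, was the one marker with the higher value. Prm1 had 16362 FPKM in PTBP1_KO and 13135 FPKM in WT, a log2 fold change of 0.32 with an unadjusted p of 0.0007 and q = 0.0551 in the authors' deposited table. Ddx4, a germ cell RNA helicase, had 197.2 FPKM in PTBP1_KO and 238.9 FPKM in WT, a log2 fold change of -0.28 with an unadjusted p of 0.00465 and q = 0.169 in the authors' deposited table. All 5 Sertoli cell markers had the higher FPKM in PTBP1_KO, summing to 1250 FPKM against 896.99 FPKM in WT. Clu, a secreted chaperone, was the one Sertoli cell marker past the threshold (1199 FPKM in PTBP1_KO and 853.6 FPKM in WT). Sox9 had 6.93 FPKM in PTBP1_KO and 5.33 FPKM in WT (unadjusted p = 0.0019 and q = 0.0995, the authors' deposited table). Nearly all of the difference in the Sertoli cell sum came from Clu. Amh was low, at 0.708 FPKM in PTBP1_KO and 0.598 FPKM in WT. Leydig cell markers summed to 1304 FPKM in PTBP1_KO and 1036 FPKM in WT, 2 of them with the higher and 2 with the lower value in PTBP1_KO, and Insl3, a peptide hormone gene, passed as higher. The difference in that sum came from Insl3, at 1049 FPKM in PTBP1_KO and 749.6 FPKM in WT. Star, which brings cholesterol into mitochondria for steroid synthesis, had 63.6 FPKM in PTBP1_KO and 85.5 FPKM in WT (unadjusted p = 0.0149 and q = 0.321, the authors' deposited table). Hsd3b6 went the other way, at 47.7 FPKM in PTBP1_KO and 39.6 FPKM in WT (unadjusted p = 0.0163 and q = 0.338, the authors' deposited table). All tested myoid (2), endothelial (2) and macrophage (3) markers had the higher FPKM in PTBP1_KO, and their sums were 45.2, 3.19 and 12.0 FPKM in PTBP1_KO and 39.4, 2.84 and 8.33 FPKM in WT. The macrophage marker Cd68 had 3.95 FPKM in PTBP1_KO and 2.73 FPKM in WT (unadjusted p = 0.00345 and q = 0.143, the authors' deposited table). Of the epididymis markers, Lcn8 was listed at 0 in both groups and Lcn5 at 0 in WT, while Crisp1 stood at 5.90 FPKM in PTBP1_KO and 0.0482 FPKM in WT and passed the threshold. Clu, Insl3 and Crisp1 were the only markers to pass. Of all tested genes, 1.16% passed and 8.98% had an unadjusted p under 0.05. Among those reaching 100 FPKM, 1.55% passed. The part that a different mix of cells played in the subunits' values was not tested. The targeted gene does not settle the labels in whole testis, where Ptbp1 stood at 46.7 FPKM in PTBP1_KO and 49.97 FPKM in WT, with q = 0.999 in the authors' deposited table.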

How the data were processed

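RNA from whole testes was measured in 3 PTBP1_KO and 3 WT libraries, grouped by their titles. Per the submitters' processing notes, the build was mm10 and the tools were STAR 2.6.1d, Trimmomatic 0.38, bcl2fastq 2.20, Cuffdiff and Cufflinks, listed with no role or order. The annotation, Cuffdiff's version and its normalisation were not given there. Per the file headers, the deposited table holds the FPKM of each group, combined from its libraries by the authors, the log2 fold change of PTBP1_KO over WT, a signed test statistic (a score) and a p-value and q-value. The statistic's scale is not known. No library's own value was used, so no model was refitted.

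Calls use Cuffdiff's own q, at under 0.05, over the genes it tested. The deposited q equalled Benjamini-Hochberg adjustment of the deposited p within 5.20e-07. As an alternative, a normal p was computed from the statistic and adjusted over all tested genes. Gene positions and overlaps come from GENCODE M21 on the same build (98.6% of identifiers matched), copies from BLAST 2.17.0, sequences from RefSeq. Fragment weights were read from FPKM steps of single-exon genes, with 428 values in PTBP1_KO and 430 in WT. That step was tested on simulated data. The code for the normal p was run on simulated normal scores, which cannot show whether the deposited statistic is on that scale. Genes named besides the subunits are the most abundant tested member and those with unadjusted p under 0.05 of each pathway list, genes beside or overlapping a subunit, and a few chosen after their values were seen (Mkks, Bbs10, Bbs12, Tuba3b, Tubb4b, Vbp1, Hspd1, Cdc20, Fzr1, Acta1, Actc1, Hsf1 and the markers). Members, lists and tests were chosen with earlier results of these data known. The comparison with genes of at least 100 FPKM was added after seeing the data. Protein identity between subunits was not analysed here. With 2 group values, no likeness of pattern between genes was computed.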

Additional observations from a re-analysis of the deposited data

How the results depend on the processing

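The count of subunits past the threshold was 0 with Cuffdiff's deposited q and also at an unadjusted p under 0.05. The smallest unadjusted Cuffdiff p of a subunit was 0.0712, so no adjustment of these p-values could give a call. The count of 0 with adjustment over genes reaching 1 FPKM was therefore fixed in advance. With the normal p, whose smallest unadjusted value was 0.301, the count of 0 was fixed as well. Each subunit's log2 fold change stayed below 0 when centred on the median of genes reaching 1 FPKM or 100 FPKM. Pseudocounts of 1 and 0.1 and the normal p cannot turn its sign, and with the normal p no subunit could gain a call. The centring at 100 FPKM, added after seeing the data, moved values most, to between -0.16 (Cct8) and -0.004 (Cct2). It brought the subunits' median to -0.07, against -0.14 as reported. Without Cct6b the median was -0.16. As a share of all 9 subunits instead of both zeta paralogs, Cct6b made up 3.62% in PTBP1_KO and 3.50% in WT. No paired analysis was possible because the table holds 1 value per group and no value per library; for the same reason no replicate could be left out. Depth did not limit these values, but the spread between libraries is not known.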
